A study of Mus musculus with 32 samples.

Results

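Control satellite cells at day 7 and at day 3 after muscle injury were compared in 8 of the 32 libraries of the series, 4 for each day. Satellite cells are the stem cells of skeletal muscle. The members were taken by their labels, as the satellite cell columns without a graft, and each library of a day has its own mouse code or none. All mice were wild-type C57BL/6J, labelled male and aged 12 weeks, and the muscle was the supraspinatus, a rotator cuff muscle, after cardiotoxin, a venom toxin that destroys muscle fibres. In the series, the other muscle of the same mouse also received brown adipose tissue (BAT) from 3-week-old donors, and FAPs (fibro-adipogenic progenitors, mesenchymal cells that lie between the fibres) were sorted from the same muscles. Per the labels the satellite cell gate was CD45-, CD31-, Sca1+ and integrin alpha 7+, so leukocytes and endothelial cells were meant to be removed. The 2 days are different mice and different deposited tables, so the day and the table cannot be told apart. No uninjured muscle was analysed here, so day 3 is the reference and not a resting state.

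In resting muscle, satellite cells express the transcription factor Pax7 and do not divide. After injury they express Myod1 and divide as myoblasts; some then express myogenin (Myog), leave the cell cycle and fuse into new fibres with newly made contractile proteins, while others return to quiescence, a step in which Notch signals, the calcitonin receptor and the basement membrane are known to take part. Proliferating myoblasts make ribosomes and DNA and rely strongly on glycolysis. In bulk RNA from sorted cells, fewer cells of a type and less RNA per cell cannot be told apart.

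The libraries held 21883354 to 46378918 counts at day 3 and 23489427 to 31013379 at day 7, and a count of 0 allowed a level of up to 0.0647 to 0.137 CPM, for counting error only. Total count, number of genes with 10 counts or more, the share of mitochondrially encoded counts and the share of the 100 highest genes did not pass an exact permutation test between the days (two-sided p = 0.857, 0.0857, 0.171 and 0.0857, with 0.0286 the smallest p that 4 against 4 allows). CPM is the count of a gene relative to its library's total, scaled by the trimmed mean of M values (TMM). Satellite cells were scaled within their own day comparison and FAPs within the joint fit with satellite cells. Their CPM are therefore not on exactly the same scale. The satellite cell label held in both days: Pax7, Myod1 and Itga7, which encodes the integrin of the sort, were present in every library. Ly6a, which encodes Sca1, was at 3.52, 7.86, 35.5 and 2.53 CPM at day 3 and at 4.30, 4.94, 8.18 and 3.67 CPM at day 7, against a mean of 885 and 850 CPM in the control FAPs, although the gate is labelled Sca1+ for both. Pecam1 (CD31) reached at most 3.21 CPM.

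A pair of libraries stood apart from their groups. Day 3 replicate 3 held more RNA of other cell types than the other day 3 libraries: its 26 macrophage and monocyte markers summed to 3456 CPM against 37.8 to 123 CPM, with Lyz2 (lysozyme) at 1041 CPM and Ptprc (CD45) at 10.8 CPM. Its neutrophil, erythroid and FAP sums were also the highest of that day, at 242, 269 and 1292 CPM. Day 7 replicate 3 had 312 CPM of Xist, the RNA of the inactive X chromosome, and none of the Y-linked Ddx3y, unlike the 7 other libraries, so it goes against the label male. Values that rest on these libraries are given below also without both. The labels call the libraries of a day biological replicates, and the library that carries no number is called replicate 4.

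Of 16597 genes tested, 4926 were called higher and 4939 lower at day 7 (edgeR quasi-likelihood F test, Benjamini-Hochberg adjusted p under 0.05), which is 29.7% and 29.8% of the genes and 59.4% in all. With a change of 2-fold or more as well, 19.4% were higher and 15.6% lower, 35.0% in all. The values of the 2 days did not overlap for 53.9% of the genes. A call alone is therefore common in this comparison. The lists below were chosen with earlier results of these data known, so those shares are a reference and give no test. Each count of members is to be read beside them and beside the median log2 change of all genes, 0.03. When all 32 libraries entered a single fit, that median was 0.20 and 58.6% of the calls were higher, against 49.9% here. In that fit Myf5, Sdc4, Myod1, Mymk, Eya1, Myh3, Chrna1, Chrng, Mcm2, Mcm5, Cdt1 and Il1b, all described below, were not called.

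Transcript length moved with the day change, and this bears on lists of short genes and on lists of long genes. The median log2 change ran from -0.83 in the shortest sixth of the genes to 0.37 in the longest. The same order was seen in satellite cells with BAT (-0.53 to 0.37) and in control FAPs (-0.33 to 0.24, both as the log2 of CPM + 0.5). With a transcript length offset in the fit, 4487 genes were higher and 4815 lower. The part of length in the results was not tested, and values with the offset are given for the named genes whose call it changed and for others that it moved.

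**Figure D1:**
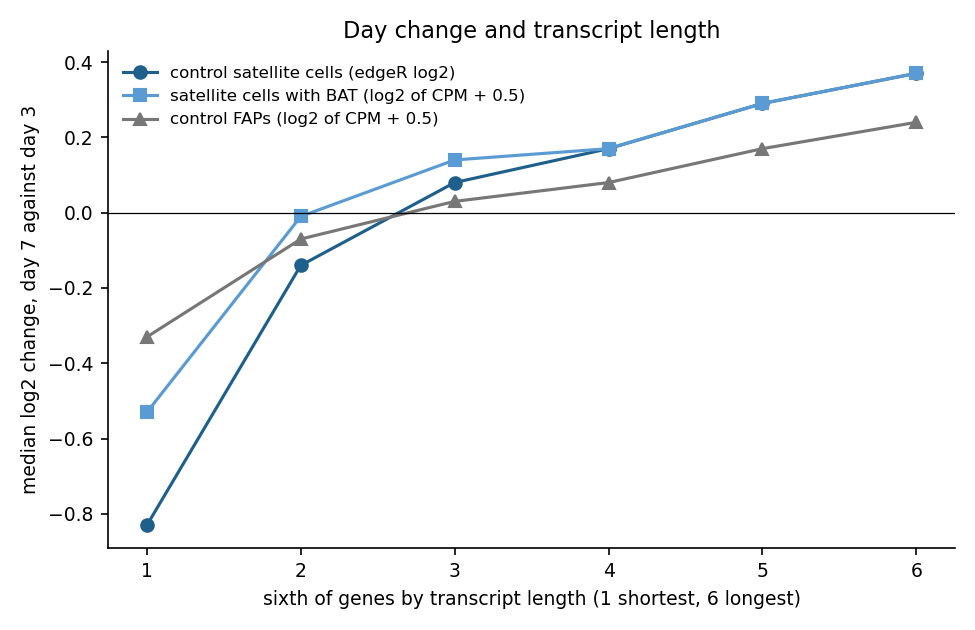
Median log2 change from day 3 to day 7 (vertical axis) in 6 equal groups of genes ordered by transcript length (horizontal axis), for control satellite cells, satellite cells with BAT and control FAPs. All 3 lines rise from the shortest to the longest group, and the control satellite cell line spans -0.83 to 0.37.

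Pax7 rose and Myod1 fell. Pax7 (ENSMUSG00000028736, chr4:139737062-139833528, minus strand, mm10), which marks satellite cells and maintains them, was at 28.7, 31.4, 33.2 and 43.1 CPM in day 3 replicates 1 to 4 and at 141, 104, 57.6 and 128 CPM in day 7 replicates 1 to 4. The days did not overlap, and day 7 replicate 3 was the lowest of its day (log2 change 1.66 ± 0.26 SE, adjusted p = 3.64e-04). With the length offset the log2 change of Pax7 was 1.31. Myod1 (ENSMUSG00000009471, chr7:46376474-46379099, plus strand), the factor of activated myoblasts, was at 420, 396, 597 and 651 CPM at day 3 and at 315, 242, 147 and 282 CPM at day 7. It too had groups that did not overlap, with day 7 replicate 3 lowest (log2 -1.07 ± 0.25, adjusted p = 0.00389). Itga7 was at 385 to 634 CPM at day 3 and 432 to 775 CPM at day 7, and the days overlapped (log2 0.49 ± 0.21, adjusted p = 0.0721). Without day 3 replicate 3 and day 7 replicate 3 it passed the test (log2 0.71, adjusted p = 0.0133).

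Of 27 genes of satellite cell identity and quiescence, 19 were called higher and 2 lower, with a median log2 change of 0.94. Calcr, the calcitonin receptor, was at 1.02, 1.93, 1.90 and 2.19 CPM at day 3 and 17.2, 9.24, 12.3 and 27.9 CPM at day 7, a 9.41-fold rise (log2 3.23 ± 0.38, adjusted p = 6.74e-05). All day 7 libraries lay above all day 3 libraries. Pax3, the paralogue of Pax7, rose from 5.87 ± 0.496 to 17.2 ± 2.66 CPM (SD, n = 4). Myf5, the myogenic factor already present in many resting satellite cells, rose from 141 ± 29.2 to 388 ± 118 CPM. Spry1, which dampens receptor tyrosine kinase signals, rose from 45.4 ± 16.7 to 127 ± 24.1 CPM. With Pax3, the smallest p-values among the rises of this list belonged to Tenm4 (teneurin 4; log2 3.78 ± 0.37) and Megf10 (a transmembrane protein of satellite cells; log2 2.41 ± 0.19). Chrdl2, a BMP antagonist, rose from 0.451 ± 0.140 to 3.20 ± 0.521 CPM. Met, the receptor of hepatocyte growth factor, fell from 80.7 to 88.3 CPM at day 3 to 36.0 to 49.6 CPM at day 7 (log2 -1.01 ± 0.13, adjusted p = 1.32e-04). Sdc4, a heparan sulfate proteoglycan of the satellite cell surface, was the other member that fell (log2 -0.59 ± 0.14, adjusted p = 0.00507). Cdh15, M-cadherin, was at 417 ± 142 and 525 ± 112 CPM and did not pass the test (adjusted p = 0.255).

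**Figure D2:**
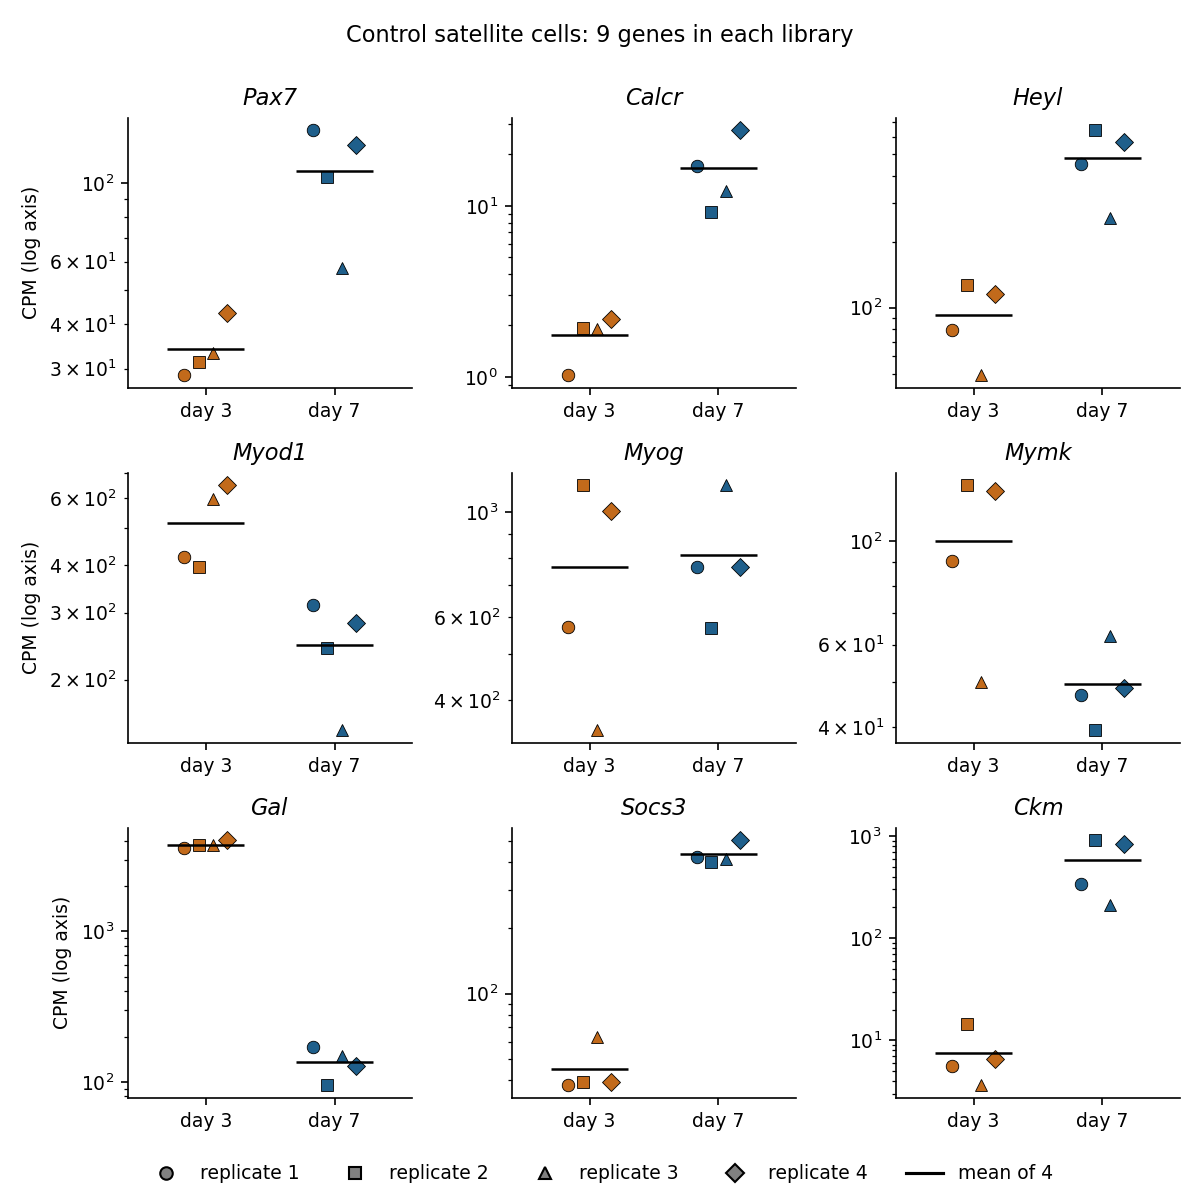
CPM (vertical, log axis) of 9 genes in each control satellite cell library at day 3 and day 7; a symbol is a replicate and the bar is the mean of 4. Pax7, Calcr, Heyl, Socs3 and Ckm are higher at day 7 in every library, Myod1 and Gal are lower, and the days overlap for Myog and Mymk.

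Among 22 tested genes of the Notch list, 15 were called higher and 2 lower (median log2 1.30). The list also held the collagen genes Col5a1, Col5a2, Col5a3 and Col6a1, so the count is not of Notch components alone. Notch3, a receptor also found on mural cells of vessels, rose from 25.3 ± 5.58 to 128 ± 46.5 CPM. Heyl, a transcriptional target of Notch, was at 79.4, 127, 49.2 and 115 CPM at day 3 and 453, 646, 255 and 567 CPM at day 7 (log2 2.37 ± 0.34, adjusted p = 2.49e-04), so the lowest day 7 library exceeded the highest of day 3. Its rise exceeded that in FAPs (difference of log2 changes 1.87 ± 0.20, adjusted p = 3.55e-04). Hey1, another target, rose 2.2-fold, while Hes1 was at 60.6 ± 15.3 and 69.8 ± 27.0 CPM and did not pass the test (adjusted p = 0.564). Col6a1, a collagen VI chain of the niche, rose from 87.9 ± 12.8 to 790 ± 372 CPM. Its means in FAPs were 1945 and 3917 CPM, and the part of FAP RNA in its rise was not tested. The members that fell were the ligand gene Jag2 (9.73 ± 2.17 to 2.51 ± 1.13 CPM) and Hes6 (112 ± 17.3 to 51.5 ± 8.50 CPM), which is known to act against Hes1 and in favour of myogenic differentiation.

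Myogenic regulators and fusion genes did not move as a group: 12 of 36 tested were higher and 10 lower, with a median log2 change of 0.02. Myog, which drives terminal differentiation, was at 572, 1139, 345 and 1004 CPM at day 3 and 764, 569, 1142 and 765 CPM at day 7. These values overlapped, and the change did not pass the test (log2 0.08 ± 0.35, adjusted p = 0.85). Mymk, the fusion factor myomaker, was at 90.8, 132, 49.9 and 128 CPM and then 46.8, 39.3, 62.7 and 48.4 CPM; it fell 2.03-fold (adjusted p = 0.00937), although day 3 replicate 3 lay within the day 7 range. Mymx, the micropeptide that acts with it, was at 48.7 ± 26.5 and 30.6 ± 8.35 CPM (adjusted p = 0.142) and fell without both libraries that stood apart (log2 -1.05, adjusted p = 0.00944). Its log2 change was -0.67 in the fit of all 8 libraries and -0.04 (adjusted p = 0.937) with the length offset. Mef2c, a cofactor of the myogenic factors, rose from 10.0 ± 2.02 to 70.6 ± 29.9 CPM, by more than in FAPs (difference 1.85 ± 0.26, adjusted p = 0.00112). Its relative Mef2a was at 94.1 ± 23.8 and 54.2 ± 15.7 CPM (log2 -0.79, adjusted p = 0.0153), and this call was lost without day 7 replicate 1 and without day 7 replicate 4. Among the falls with the smallest p were Id2, an inhibitor of bHLH factors (1253 ± 156 to 538 ± 77.2 CPM), and Eya1, a coactivator of homeodomain factors (log2 -0.80 ± 0.13). Jam3, an adhesion molecule, rose from 93.6 ± 18.0 to 236 ± 40.9 CPM.

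More members were higher at day 7 than lower in both the sarcomere list and the list of mature fibre genes, which also holds enzymes and calcium-binding proteins. Of 32 embryonic and shared sarcomere genes, 14 were higher and 5 lower (median log2 0.64), and of 19 tested genes of mature fibres 15 were higher and 2 lower (median log2 3.41). Without both libraries that stood apart, 15 sarcomere genes were higher and 9 lower (median log2 0.61). Of the fibre genes 15 were then higher and 2 lower (median log2 3.04). Acta1, skeletal actin, was at 319, 486, 91.8 and 373 CPM at day 3 and 1276, 3126, 1204 and 2683 CPM at day 7, with no overlap (log2 2.71 ± 0.49, adjusted p = 9.93e-04). Mybpc1, a myosin binding protein of slow fibres, rose from 4.02 ± 0.912 to 115 ± 29.4 CPM. Tcap, a cap protein of titin, rose from 0.574 ± 0.488 to 28.6 ± 8.71 CPM. Myh3, the embryonic myosin chain, was at 26.3, 52.6, 9.31 and 39.8 CPM at day 3 and 3.45, 9.97, 13.1 and 10.7 CPM at day 7. It fell 3.45-fold (log2 -1.79 ± 0.51, adjusted p = 0.012), with day 3 replicate 3 inside the day 7 range. Smyd1, a methyltransferase that helps to assemble myosin, fell from 17.2 ± 7.65 to 5.26 ± 0.701 CPM. Tnnc1, the slow and cardiac troponin C, was at 14.1 ± 10.3 and 3.38 ± 2.41 CPM (adjusted p = 0.0229), a call lost in 7 of 18 alternatives, among them without day 3 replicate 2 and without each of day 7 replicates 1, 2 and 4, and with the length offset (log2 -1.35 against -2.07, adjusted p = 0.095). Tnnt2 was at 83.7 ± 42.0 and 87.5 ± 37.6 CPM (adjusted p = 0.901), and Tnni1, the slow troponin I, at 71.9 ± 45.9 and 33.1 ± 15.6 CPM (adjusted p = 0.0786; log2 -1.70 with adjusted p = 0.00156 without both libraries that stood apart).

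The largest rises of all genes, under the naming rule, were led by genes of fast fibres. Pvalb, parvalbumin, the calcium buffer of fast fibres, was at 0.267, 0.416, 0.303 and 0.340 CPM at day 3 and 87.3, 146, 69.6 and 166 CPM at day 7 (log2 8.41 ± 0.38, adjusted p = 8.24e-07). Myh4, the fastest myosin chain, was at 0.134, 0.703, 0.173 and 0.340 CPM and then 16.4, 42.6, 16.7 and 63.0 CPM (log2 6.54 ± 0.64). Ckm, muscle creatine kinase, was at 5.61, 14.6, 3.64 and 6.66 CPM and then 341, 916, 213 and 830 CPM (log2 6.22 ± 0.63). The naming rule required that the days not overlap, so the separation of the days in these genes was fixed by their choice. Day 7 replicates 2 and 4 were the highest for each of them. Mybpc2, the fast myosin binding protein, rose from at most 0.303 CPM to 21.6 to 63.5 CPM (log2 8.18, and 9.08 without both libraries that stood apart). Myoz1 (a Z-disc protein; log2 7.76 ± 0.36), Myot (myotilin, of the Z-disc; 7.21 ± 0.60) and Tcap (5.51 ± 0.50, and 6.12 with the length offset) were also among the 15 largest rises. Eno3, the muscle enolase, went the other way: 1943, 1997, 1784 and 1868 CPM at day 3 and 230, 325, 240 and 368 CPM at day 7 (log2 -2.71 ± 0.17, adjusted p = 3.67e-06), against means of 8.88 and 11.7 CPM in FAPs. The summed level of the 20 fibre genes, of which Eno3 held most at day 3, was 2033 to 2347 CPM at day 3 and 1052 to 2363 CPM at day 7. The part of RNA from fibres or myotubes sorted with the cells was not tested.

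Other large rises lay outside muscle genes. Dcx, doublecortin, a microtubule protein known from migrating neurons, was at 0.216 to 0.846 CPM at day 3 and 26.9 to 52.7 CPM at day 7 (log2 6.37 ± 0.37). Gpc3, glypican 3, a heparan sulfate proteoglycan, was at 4.32, 3.12, 4.37 and 2.82 CPM and then 270, 216, 201 and 251 CPM (log2 6.00 ± 0.20, adjusted p = 5.08e-07). The spread within each day was small, and the rise exceeded that in FAPs (difference 4.51 ± 0.31, adjusted p = 4.71e-05). Hmcn2, hemicentin 2, an extracellular protein, rose from 2.88 ± 1.03 to 167 ± 74.1 CPM, again by more than in FAPs (difference 3.31 ± 0.38, adjusted p = 4.76e-04). Iigp1 rose from 1.98 ± 1.29 to 155 ± 33.1 CPM and Tgtp2 from 0.714 ± 0.585 to 52.3 ± 18.0 CPM, and both encode interferon-inducible GTPases. Trarg1, a regulator of the glucose transporter GLUT4, was at 0.243 to 0.952 CPM and then 16.1, 92.8, 25.2 and 15.6 CPM, with day 7 replicate 2 far above the others (log2 5.79 ± 0.71). Rgs5 and Col15a1 are described below.

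**Figure D3:**
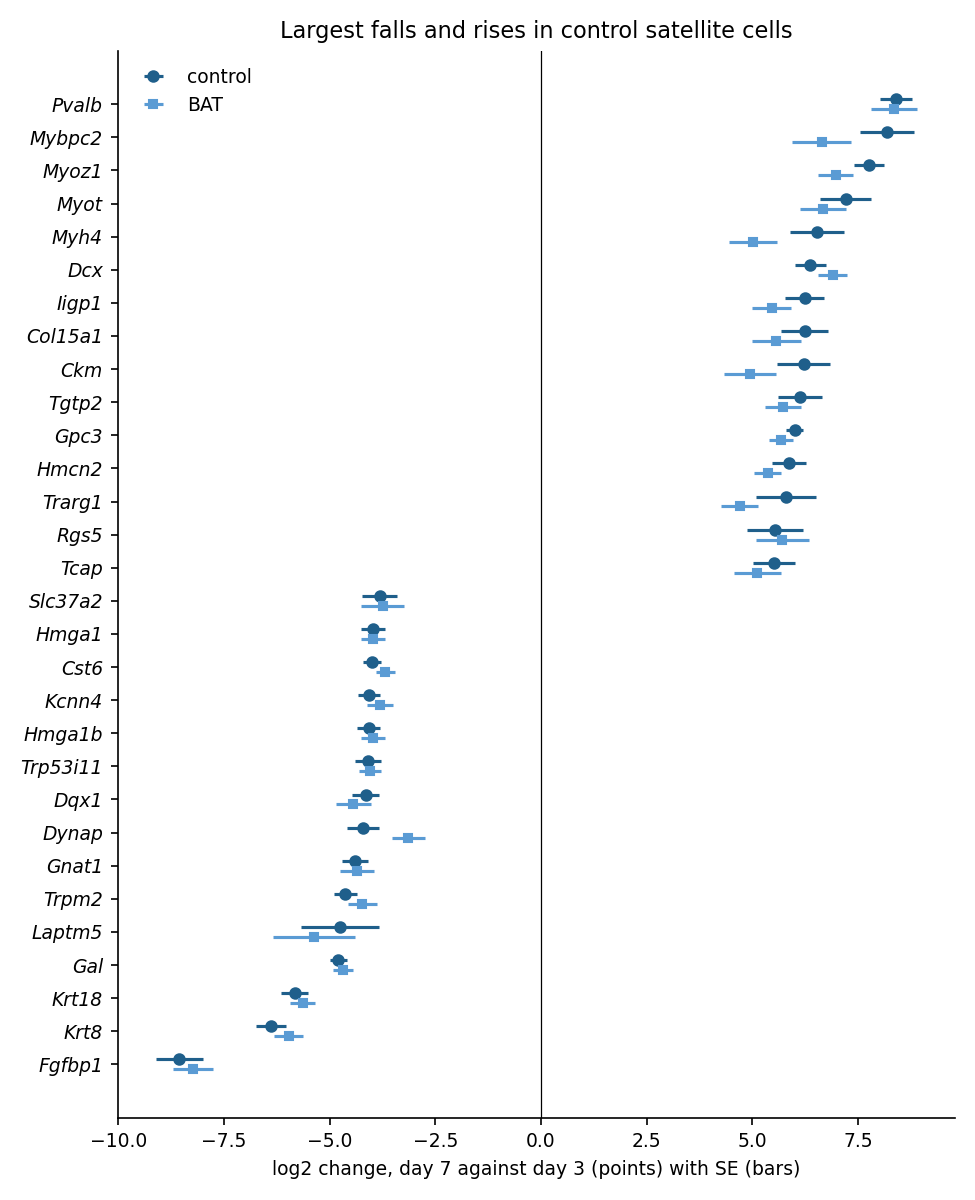
Log2 change from day 3 to day 7 (horizontal axis; bars are SE) of the 15 largest rises and 15 largest falls in control satellite cells, with the value in satellite cells with BAT beside each. Rises run up to 8.41 (Pvalb) and falls down to -8.56 (Fgfbp1), and all 30 genes have the same sign with BAT.

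The largest falls of all genes included Gal, a pair of keratins and the Hmga1 genes. Gal (ENSMUSG00000024907, chr19:3409915-3414544, minus strand), which encodes the neuropeptide galanin, was at 3558, 3748, 3729 and 4060 CPM at day 3 and 171, 94.7, 149 and 128 CPM at day 7. Its log2 change was -4.80 ± 0.20 (adjusted p = 8.24e-07), and -4.16 with the length offset. The naming rule required that the days not overlap for these falls too. Means in FAPs were 2.89 and 1.69 CPM. Krt8 and Krt18, partner keratins of simple epithelia, fell from 44.6 to 114 CPM to 0.706 to 1.02 CPM (log2 -6.39 ± 0.35) and from 116 to 169 CPM to 1.23 to 3.84 CPM (log2 -5.83 ± 0.32). Fgfbp1, a secreted carrier of fibroblast growth factors, was at 25.1, 37.0, 22.8 and 21.5 CPM at day 3; at day 7 replicates 1 and 2 were at 0 and the others at 0.176 and 0.109 CPM. Its fitted log2 change of -8.56 (-9.52 without both libraries that stood apart) therefore rests on a few counts. Hmga1, a chromatin protein of proliferating and embryonic cells, fell from 891 ± 212 to 56.4 ± 19.3 CPM, by more than in FAPs (difference -3.69 ± 0.29, adjusted p = 8.26e-05). Hmga1b, a near-identical copy, fell alike (log2 -4.08 ± 0.28), and reads of the 2 copies may have been shared between them. Hmga2, of the same family, fell from 23.6 ± 4.54 to 2.43 ± 0.271 CPM.

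The rest of the 15 largest falls were genes of several kinds. Trpm2, a calcium-permeable channel gated by oxidative stress, fell from 20.5 ± 4.33 to 0.823 ± 0.239 CPM. Kcnn4, a calcium-activated potassium channel, fell from 34.2 ± 8.46 to 2.02 ± 0.545 CPM. Gnat1, the transducin alpha subunit known from rod cells, fell from 104 ± 29.0 to 4.95 ± 1.77 CPM. Trp53i11, a p53-induced gene, fell from 263 ± 73.6 to 15.3 ± 6.17 CPM, and Cst6, a cystatin protease inhibitor, from 52.6 ± 4.64 to 3.32 ± 1.00 CPM. Slc37a2, a sugar phosphate exchanger (log2 -3.82 ± 0.41), Dynap (-4.21 ± 0.37) and Dqx1 (-4.15 ± 0.32) complete the falls, with Laptm5. Laptm5, a lysosomal membrane protein of blood cells, was at 6.59, 8.01, 90.5 and 10.7 CPM at day 3 and at most 1.48 CPM at day 7. Its value thus rests in part on day 3 replicate 3, the library rich in macrophage RNA: log2 -4.76 with it and -3.11 (adjusted p = 1.73e-04) without both libraries that stood apart, and DESeq2 did not call it.

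Cell cycle genes fell without disappearing. Of 30 DNA replication genes, 27 were called lower and 0 higher (median log2 -0.86), and of 30 mitosis genes 25 were lower and 0 higher (median log2 -0.80). Rrm2, a subunit of ribonucleotide reductase, was at 883, 835, 915 and 930 CPM at day 3 and 293, 231, 275 and 268 CPM at day 7 (log2 -1.74 ± 0.12, adjusted p = 4.36e-06). Ccnb1, cyclin B1, was at 290, 338, 260 and 255 CPM and then 76.8, 75.3, 147 and 84.2 CPM (log2 -1.58 ± 0.22). The days did not overlap for either gene, and day 7 replicate 3 was the highest of its day for Ccnb1. Cdk1, the kinase of mitosis, fell 2.36-fold and Ube2c, a ubiquitin-conjugating enzyme of the anaphase-promoting complex, 2.90-fold. Mcm2 and Mcm5, parts of the replicative helicase, fell 1.67-fold and 1.70-fold. Cdt1, a licensing factor, was at 59.5 ± 12.5 and 37.1 ± 11.8 CPM (adjusted p = 0.0406), but the call was lost in 12 of 18 alternatives, each left-out library but day 3 replicate 2 among them. The proliferation markers Mki67 (102 ± 8.84 and 83.3 ± 20.8 CPM, adjusted p = 0.18) and Top2a (339 ± 23.9 and 312 ± 103 CPM, adjusted p = 0.624) did not pass the test. Without both libraries that stood apart, Top2a was lower at day 7 (log2 -0.35, adjusted p = 0.0223). With the length offset Mki67 was called lower (log2 -0.70, adjusted p = 0.0109, against -0.29 without the offset).

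The fall of mitosis genes was smaller in satellite cells than in FAPs for 21 of 30 members (difference of log2 changes from a fit of 16 libraries with the mouse as a block, adjusted p under 0.05), and larger for 0. Over all 18069 genes 23.8% differed between the cell types, 15.4% with the higher value in satellite cells and 8.39% with the lower one; the higher share of those calls was 64.8%, and 50.7% with the length offset. The 15 genes whose difference from FAPs is given in the text were chosen after their values were seen, among genes that FAPs also express. Mki67 fell from a mean of 48.9 to 12.6 CPM in FAPs (difference 1.82 ± 0.26, adjusted p = 0.00137) and Top2a from 130 to 40.9 CPM (difference 1.93 ± 0.31, adjusted p = 0.0021).

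The promoters of Cdk1 and Ube2c show the short sequences that mitosis genes share. The CCAAT box (letters CCAAT) was in 20 of 25 mitosis genes with a RefSeq promoter and in 41.1% of all genes, and the cell cycle homology region (TTTGAA) in 17 of 25 against 20.2%, both strands counted. In the replication list, TTCCCGC, an E2F core, was in 12 of 24 against 5.29%. CAGCTG, an E-box of myogenic factors, was in 8 of 23 members of the myogenic list against 18.3%, and TGGGAA, a core of the sites of the Notch factor RBPJ, in 3 of 18 members of the Notch list, a lower share (16.7%) than the 28.3% of all genes. By call, the CCAAT box was in 16 of 20 mitosis genes called lower and in 4 of 5 not called. The cell cycle homology region was in 13 of 20 and 4 of 5, and the E2F core in 10 of 22 and 2 of 2. The E-box was in 0 of 5 members called higher, 4 of 6 called lower and 4 of 11 not called. For the RBPJ core these were 2 of 12, 0 of 2 and 1 of 3. A match is a description of letters and shows no binding. The 300 bases below run 5′ to 3′ on the gene's strand, from 250 before the start (RefSeq, GRCm38.p6). Cdk1 lies at chr10:69352863-69353162, minus strand, with 3 CCAAT boxes and 2 cell cycle homology regions in capitals. Ube2c lies at chr2:164769679-164769978, plus strand, with 6 and 1, of which a pair of CCAAT boxes overlap. These and the 2 promoters printed further below are shown for the motif of their list, and were chosen after the matches were seen.
Cdk1: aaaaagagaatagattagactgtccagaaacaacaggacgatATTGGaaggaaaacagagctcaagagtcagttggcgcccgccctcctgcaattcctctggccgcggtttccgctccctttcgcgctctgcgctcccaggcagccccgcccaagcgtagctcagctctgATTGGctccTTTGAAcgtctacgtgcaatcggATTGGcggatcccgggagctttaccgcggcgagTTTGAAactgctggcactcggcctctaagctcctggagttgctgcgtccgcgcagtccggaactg
Ube2c: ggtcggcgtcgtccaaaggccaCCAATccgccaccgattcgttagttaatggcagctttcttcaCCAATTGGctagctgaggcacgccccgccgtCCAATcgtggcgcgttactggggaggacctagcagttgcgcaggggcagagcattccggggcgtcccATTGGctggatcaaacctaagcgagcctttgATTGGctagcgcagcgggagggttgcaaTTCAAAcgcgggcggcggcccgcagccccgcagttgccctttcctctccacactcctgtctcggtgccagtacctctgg

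D cyclins, CDK inhibitors and genes of cell cycle exit moved both ways: 8 of 22 were higher and 5 lower (median log2 0.17). Ccnd3, the D cyclin known to rise as myoblasts differentiate, was at 80.7, 89.9, 83.0 and 108 CPM at day 3 and 367, 280, 221 and 353 CPM at day 7, with no overlap (log2 1.76 ± 0.18, adjusted p = 3.21e-05). Ccnd1 was at 175 ± 48.7 and 111 ± 54.1 CPM and did not pass the test (adjusted p = 0.118). Cdkn1a, the inhibitor p21, fell from 546 ± 45.0 to 240 ± 56.7 CPM. Cdkn1c, the imprinted inhibitor p57, rose from 116 ± 46.5 to 288 ± 91.0 CPM, and its rise in FAPs was larger (difference -2.65 ± 0.47, adjusted p = 0.00358). Cdkn1b, p27, was at 18.0 ± 4.88 and 21.6 ± 3.24 CPM (adjusted p = 0.284). Cdk6, a kinase partner of D cyclins, fell from 380 ± 55.8 to 158 ± 7.74 CPM, while its means in FAPs were 18.1 and 34.7 CPM (difference -1.98 ± 0.26, adjusted p = 8.77e-04). E2f4, an E2F factor of resting cells, fell from 133 ± 16.9 to 37.6 ± 4.02 CPM, and Btg2, an antiproliferative gene, rose from 69.0 ± 19.8 to 361 ± 77.9 CPM.

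**Figure D4:**
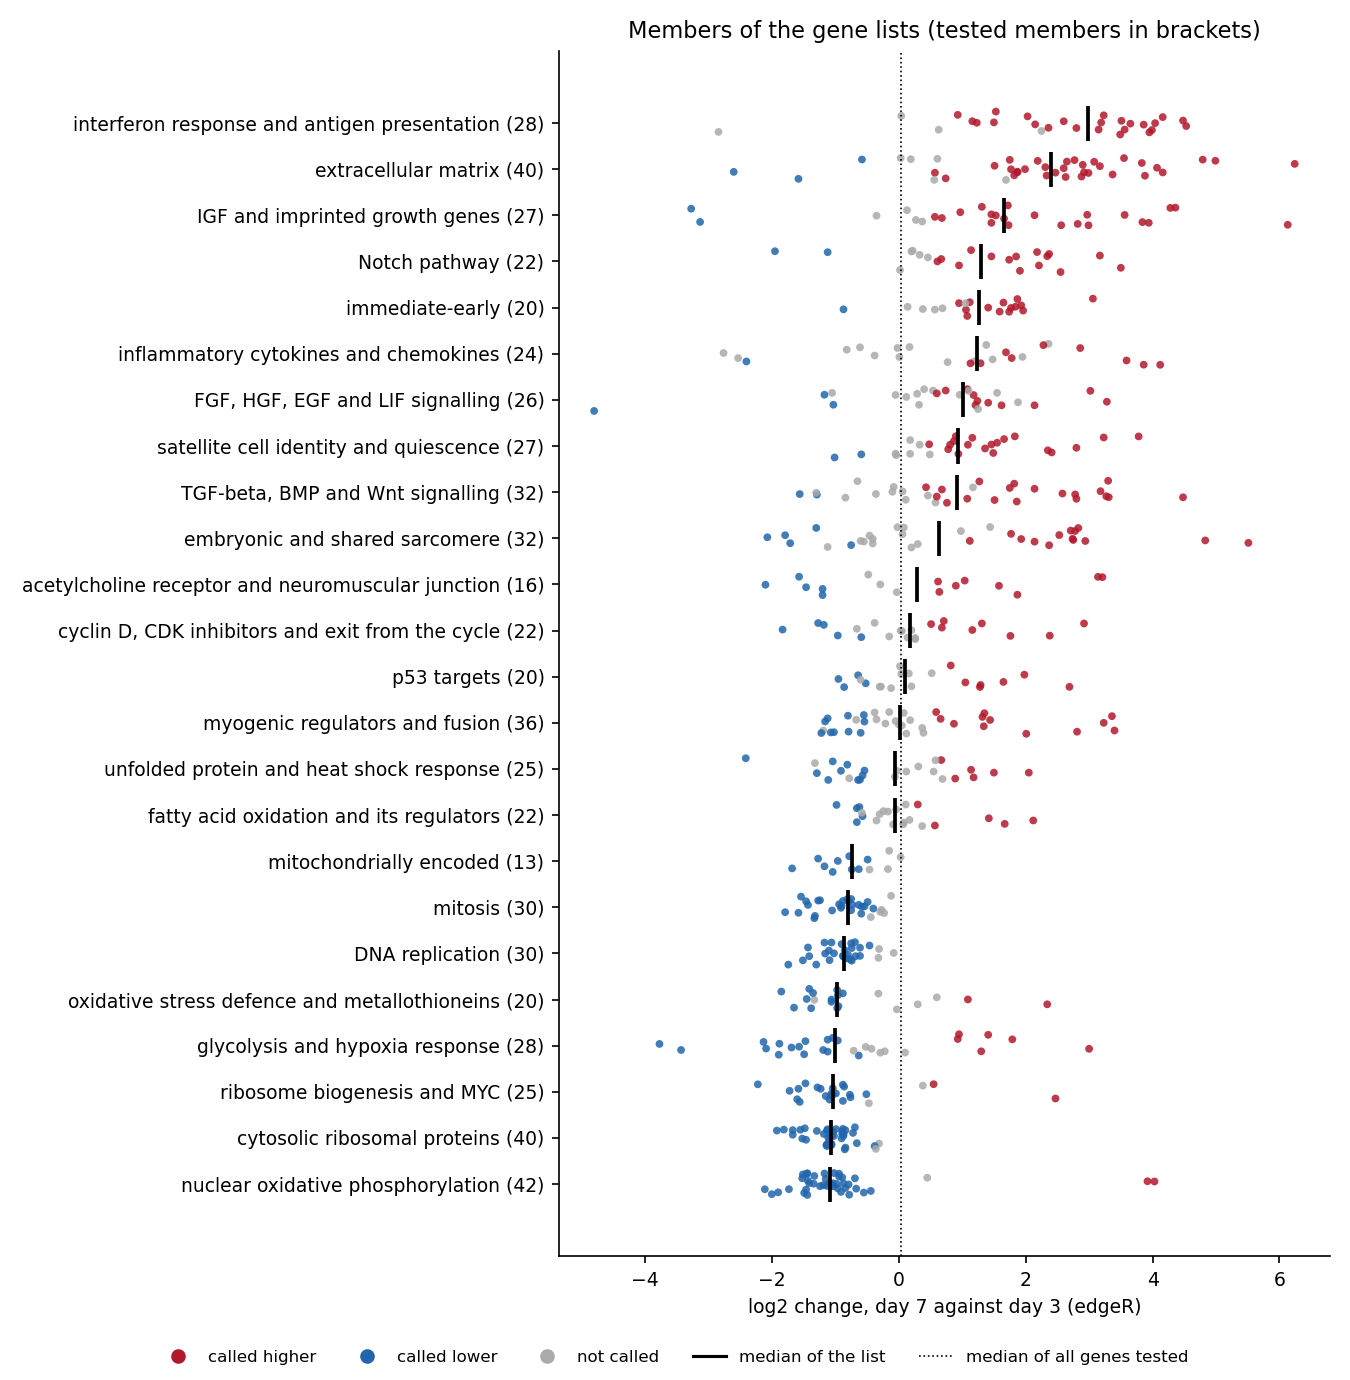
Log2 change from day 3 to day 7 (horizontal axis) of each tested member of 24 gene lists; colours mark the call, thick bars the list's median and the dotted line the median of all genes (0.03). Medians run from -1.08 (nuclear oxidative phosphorylation) to 2.98 (interferon response).

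Genes that make ribosomes were lower at day 7. Of 25 ribosome biogenesis genes, 21 were lower and 2 higher (median log2 -1.04). Npm1, nucleophosmin, was at 3360, 3602, 3043 and 2616 CPM at day 3 and 630, 564, 942 and 575 CPM at day 7 (log2 -2.22 ± 0.19, adjusted p = 1.45e-05). Ncl, nucleolin, fell 2.94-fold, and for both genes day 7 replicate 3 was the highest of its day. Myc, which drives this programme in many cells, was at 182, 136, 181 and 184 CPM and then 182, 374, 162 and 174 CPM, which overlap (adjusted p = 0.221). Mycn, its relative, was 1 of the 2 members that rose (3.73 ± 0.440 to 20.7 ± 6.53 CPM). Of 40 cytosolic ribosomal protein genes, 38 were lower and 0 higher (median log2 -1.06). These are short genes with many pseudogenes, so their counts are uncertain; with the length offset 32 were lower, with a median of -0.70. Rpl11 fell from 54.1 ± 5.52 to 14.3 ± 2.59 CPM.

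Nuclear genes of oxidative phosphorylation were lower at day 7. Of 42 such genes, 39 were lower and 2 higher (median log2 -1.08; 36 lower, 3 higher and -0.80 with the length offset). Atp5g1, a subunit of ATP synthase, was at 283, 295, 252 and 243 CPM at day 3 and 68.2, 64.0, 67.9 and 67.5 CPM at day 7 (a 4.01-fold fall, SE of the log2 change 0.11). The libraries of each day were alike and the days far apart. Cox5a, of cytochrome oxidase, fell 2.72-fold. Cox6a2, the muscle form of another cytochrome oxidase subunit, went the other way, from 0.988 ± 0.606 to 15.5 ± 4.54 CPM (log2 3.92 ± 0.40, and 4.69 with the length offset). Of the 13 mitochondrially encoded genes 9 were lower (median log2 -0.74), but with the length offset 3 were lower and 2 higher (median -0.06). mt-Nd1 fell from 4064 ± 799 to 1687 ± 201 CPM (log2 -1.27 ± 0.16, -0.70 with the offset), and mt-Cytb was at 4426 ± 1240 and 3219 ± 324 CPM (log2 -0.46, adjusted p = 0.0641; log2 0.00 with the offset).

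In glycolysis and the hypoxia response, 16 of 28 genes were lower and 6 higher (median log2 -1.0). Ldha, which makes lactate, was at 2457, 2052, 1821 and 1592 CPM at day 3 and 519, 530, 577 and 528 CPM at day 7 (log2 -1.88 ± 0.15, adjusted p = 8.44e-06), with no overlap. Eno1, the common enolase, fell from 1164 ± 78.2 to 266 ± 20.8 CPM. Egln3, a prolyl hydroxylase induced by hypoxia, was at 40.9, 28.0, 26.2 and 27.1 CPM and then 2.58, 2.76, 3.74 and 2.21 CPM (log2 -3.43 ± 0.22). Hk2, a hexokinase, was at 44.3 ± 11.7 and 36.2 ± 14.9 CPM (adjusted p = 0.388). Slc2a4, the insulin-dependent glucose transporter GLUT4 of muscle and fat, rose from 1.55 ± 0.746 to 12.6 ± 3.53 CPM. The hypoxia response element core ACGTG was in 18 of the 26 members with a promoter and in 21.8% of all genes, both strands counted, so that each CACGTG counts as a pair of overlapping matches. By call, the core was in 11 of 16 members called lower, 3 of 4 called higher and 4 of 6 not called. The Ldha window with the most matches of its 2 in the table lies at chr7:46845554-46845853, plus strand (RefSeq, GRCm38.p6), with 5 matches in capitals.
Ldha: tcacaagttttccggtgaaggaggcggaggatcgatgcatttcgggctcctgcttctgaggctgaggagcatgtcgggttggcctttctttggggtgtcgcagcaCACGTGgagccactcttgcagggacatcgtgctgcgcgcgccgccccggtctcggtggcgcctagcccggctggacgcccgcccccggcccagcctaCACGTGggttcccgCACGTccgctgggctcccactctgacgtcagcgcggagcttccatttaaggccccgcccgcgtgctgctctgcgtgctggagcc

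Fatty acid oxidation genes did not move as a group, with 5 of 22 higher and 5 lower (median log2 -0.06), and Ppargc1a, a regulator of mitochondrial genes, was at 4.43 ± 0.710 and 4.17 ± 1.78 CPM (adjusted p = 0.819). Of 20 genes of oxidative stress defence and metallothioneins, 13 were lower and 2 higher (median log2 -0.97). Prdx6, a peroxiredoxin, fell from 708 ± 38.9 to 225 ± 5.08 CPM and Mt1, a metallothionein, from 1164 ± 198 to 438 ± 93.4 CPM. The 2 that rose were Cat, catalase (51.6 ± 6.59 to 110 ± 6.66 CPM), and Gpx3, the secreted glutathione peroxidase. Gpx3 was at 441, 470, 444 and 287 CPM at day 3 and 2139, 1877, 1991 and 2333 CPM at day 7. All day 7 libraries were far above day 3 (log2 2.34 ± 0.17), while FAPs had means of 6405 and 3937 CPM (difference 3.22 ± 0.24, adjusted p = 6.78e-05).

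Extracellular matrix genes rose: 32 of 40 were higher and 3 lower (median log2 2.40). Lama2, the laminin chain of muscle basement membrane, was at 21.2, 23.7, 22.0 and 25.4 CPM at day 3 and 196, 122, 140 and 174 CPM at day 7 (log2 2.77 ± 0.17, adjusted p = 2.95e-06), and the days did not overlap. Col4a1, of basement membrane collagen IV, was at 12.6, 8.80, 21.5 and 5.98 CPM and then 369, 635, 176 and 375 CPM (log2 4.99 ± 0.49; 5.72 without both libraries that stood apart). Col15a1, which links basement membrane to the interstitium, rose from 0.535 to 2.55 CPM to 34.5 to 116 CPM (log2 6.24 ± 0.56; 7.28 without both). In each of these collagens day 3 replicate 3 was the highest of day 3 and day 7 replicate 3 the lowest of day 7. Spp1, osteopontin, fell from 942 to 2283 CPM at day 3 to 160 to 295 CPM at day 7 (log2 -2.60 ± 0.28, adjusted p = 4.73e-05). Col3a1, a fibrillar collagen, rose from 178 to 519 CPM to 1039 to 3149 CPM (log2 2.92; 3.74 without both). Fn1, fibronectin, which satellite cells use in their niche, rose from 24.6 to 105 CPM to 152 to 850 CPM (log2 2.99; 3.92 without both). Col1a1 was at 65.5, 32, 424 and 28.4 CPM at day 3 and 1329, 6121, 476 and 1926 CPM at day 7 (log2 4.16 ± 1.06, adjusted p = 0.00673; 6.29 without both).

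FAP markers moved with these matrix genes. The 24 FAP markers, some of which are matrix genes themselves, summed to 342 to 1292 CPM at day 3 and to 3900, 9788, 2181 and 4436 CPM at day 7, and 10 of 22 tested were higher and 0 lower. Without both libraries that stood apart 18 of 21 were higher, where 32.6% of all genes were higher and 27.6% lower. Single markers differed from the sum. Pdgfra, the FAP receptor for PDGF, was at 1.02, 0.807, 15.2 and 0.243 CPM at day 3 and 1.64, 6.66, 1.66 and 0.871 CPM at day 7. It was not called, and its means in FAPs were 346 and 326 CPM. Tcf21, another member of the list, was at 0. Without both libraries that stood apart, Pdgfra was higher at day 7 (log2 2.19, adjusted p = 0.0312). Col1a1 had means of 11057 and 35111 CPM and Col3a1 of 14020 and 27061 CPM in FAPs, while Lama2 had 54.4 and 127 CPM. The part of FAP RNA in the rise of the matrix genes was not tested.

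Growth genes of the IGF system and imprinted genes were mostly higher, 21 of 27 tested, with 2 lower (median log2 1.66). Igf2, insulin-like growth factor 2, was at 21.1, 21.9, 14.4 and 21.8 CPM at day 3 and 376, 474, 291 and 396 CPM at day 7 (log2 4.28 ± 0.20, adjusted p = 9.66e-07). Its neighbour H19, an imprinted noncoding RNA, was at 251 ± 53.6 and 302 ± 48.9 CPM, with overlap (adjusted p = 0.215), while in FAPs its mean went from 133 to 933 CPM (difference -2.36 ± 0.18, adjusted p = 8.26e-05). Meg3, a maternally expressed noncoding RNA, rose from 16.2 ± 8.30 to 332 ± 62.7 CPM, and Dlk1, in the same cluster, was at 0.0445, 0.156, 0.519 and 0 CPM and then 5.21, 34.2, 3.70 and 9 CPM (log2 6.13 ± 0.99; 7.59 without both libraries that stood apart). Mest rose 2.89-fold, and Plagl1, a zinc finger factor of the imprinted network, rose from 9.99 ± 0.979 to 143 ± 33.5 CPM. Of the binding proteins, Igfbp4 (10.6 ± 4.17 to 62.2 ± 21.8 CPM) and Igfbp5 (136 ± 33.4 to 451 ± 166 CPM) rose. Igfbp2 fell from 10.1 ± 4.36 to 1.16 ± 0.136 CPM; the other member that fell was Hmga2.

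In the list of FGF, HGF, EGF and LIF signalling, 11 of 26 tested genes were higher and 3 lower (median log2 1.02). The neuropeptide gene Gal, which is not part of these pathways but was placed in the list, was among those that fell. Without both libraries that stood apart 16 members were higher. Socs3, the feedback inhibitor of STAT3, was at 37.9, 39.2, 63.5 and 39.4 CPM at day 3 and 424, 400, 416 and 508 CPM at day 7 (log2 3.28 ± 0.19, adjusted p = 2.85e-06). The days did not overlap, and the rise exceeded that in FAPs (difference 2.55 ± 0.29, adjusted p = 4.40e-04). Stat3 itself rose from 39.2 ± 2.79 to 173 ± 50.9 CPM and Lifr, the receptor of leukemia inhibitory factor, from 18.1 ± 2.50 to 48.1 ± 2.38 CPM. Hbegf, a ligand of the EGF receptor, was at 49.7 ± 15.7 and 54.1 ± 13.7 CPM (adjusted p = 0.679). In TGF-beta, BMP and Wnt signalling, 19 of 32 tested were higher and 2 lower (median log2 0.92; 16 higher and 5 lower with the length offset). Tgfbr3, the coreceptor betaglycan, was at 6.32, 5.41, 6.62 and 6.08 CPM and then 60.3, 60.1, 48.4 and 67.3 CPM (log2 3.27 ± 0.15, adjusted p = 8.24e-07), a larger rise than in FAPs (difference 2.90 ± 0.17, adjusted p = 2.97e-05). Tgfb3 rose 9.94-fold and Dkk3, a secreted protein of the Dickkopf family, 22.4-fold. Mstn, myostatin, an inhibitor of muscle growth, rose from 0.128 ± 0.0827 to 1.12 ± 0.414 CPM, a few counts at day 3 (log2 3.18 ± 0.51). Wnt10a fell from 6.18 ± 0.799 to 2.08 ± 0.470 CPM.

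Interferon response and antigen presentation genes rose together: 24 of 28 were higher and 0 lower (median log2 2.98). Ifit3, an interferon-induced antiviral gene, was at 1.65, 2.55, 4.03 and 0.875 CPM at day 3 and 44.4, 24.3, 30.3 and 34.6 CPM at day 7 (log2 3.86 ± 0.40, adjusted p = 3.46e-05). Tap1, the peptide transporter of antigen presentation, rose from 3.90 ± 0.474 to 49.1 ± 14.7 CPM. The days did not overlap for either gene. Bst2, tetherin, rose 2.82-fold (log2 1.5, and 2.16 with the length offset), and B2m, the light chain of class I molecules, 2.34-fold (log2 1.23, and 1.86 with the offset). For 21 of the 28 members the log2 change was higher in satellite cells than in FAPs by the test of the difference, against 15.4% of all genes. The interferon-stimulated response element, searched by its core, was in 11 of the 22 members with a promoter and in 3.99% of all genes, both strands counted. By call, the element was in 8 of 19 members called higher and in 3 of 3 not called. The Ifit3 promoter lies at chr19:34583279-34583578, plus strand (RefSeq, GRCm38.p6), with 2 matches in capitals.
Ifit3: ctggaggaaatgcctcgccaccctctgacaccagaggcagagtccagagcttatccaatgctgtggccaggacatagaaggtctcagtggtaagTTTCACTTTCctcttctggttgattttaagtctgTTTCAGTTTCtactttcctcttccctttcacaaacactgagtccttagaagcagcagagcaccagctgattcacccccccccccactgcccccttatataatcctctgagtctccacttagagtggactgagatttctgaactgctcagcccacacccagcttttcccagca

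Inflammatory cytokines and chemokines varied among the libraries of a day: 9 of 24 tested were higher and 1 lower (median log2 1.24), and 16 of 22 were higher without both libraries that stood apart. Il6 was at 10.8, 3.98, 10.0 and 1.02 CPM at day 3 and 43.2, 220, 134 and 51.1 CPM at day 7 (log2 4.12 ± 0.73, adjusted p = 8.62e-04). Ccl2, which attracts monocytes, was at 50.4, 37.7, 233 and 15.5 CPM and then 78.8, 681, 456 and 87.6 CPM. Its days overlapped through day 3 replicate 3 (adjusted p = 0.0835), and without both libraries it was higher at day 7 (log2 3.10, adjusted p = 0.00958), as with the length offset (log2 2.44, adjusted p = 0.0459). Cxcl14 was at 0.632 to 9.18 CPM and 2.72 to 4.94 CPM (adjusted p = 0.856; log2 2.05 with adjusted p = 0.00117 without both). The member called lower, Il1b, was at 1.38, 2.47, 11 and 1.70 CPM and then 0.293, 0.307, 2.26 and 0.290 CPM, a call lost in 6 of 18 alternatives, among them without day 3 replicate 3 and without each of day 7 replicates 1, 2 and 4, and with the length offset (adjusted p = 0.0616). Without both libraries that stood apart it was kept (log2 -2.57, adjusted p = 5.59e-04).

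Immediate-early genes, which respond within minutes to stimuli that include the handling of tissue, were higher at day 7 for 14 of 20, with 1 lower (median log2 1.26). Fos was at 398, 385, 464 and 357 CPM at day 3 and 1726, 1903, 854 and 1756 CPM at day 7 (log2 1.96 ± 0.23). Egr2, a zinc finger factor, was at 18.2, 16.7, 18.0 and 15.1 CPM and then 151, 139, 120 and 155 CPM (log2 3.06 ± 0.13, adjusted p = 8.24e-07). Both had days that did not overlap, and Egr2 rose by more than in FAPs (difference 2.92 ± 0.16, adjusted p = 2.97e-05). Fosb, Jun and Egr1 rose 3.02-fold, 3.14-fold and 3.58-fold. Of 25 genes of the unfolded protein and heat shock response 6 were higher and 10 lower (median log2 -0.06). Hspa1a, an inducible heat shock protein with a near-identical neighbour, rose from 2282 ± 874 to 9440 ± 3963 CPM, and Asns, asparagine synthetase, a target of the amino acid response, fell from 181 ± 20.2 to 34.1 ± 18.5 CPM. Of 20 targets of p53, 7 were higher and 4 lower (median log2 0.10).

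Among genes of the neuromuscular junction, those of the acetylcholine receptor subunits Chrng, Chrnd and Chrna1 fell. Of 16 tested genes 8 were higher and 5 lower (median log2 0.30). Chrng, the fetal gamma subunit, was at 90.4, 104, 73.2 and 126 CPM at day 3 and 37.7, 33.2, 34.6 and 37.8 CPM at day 7 (log2 -1.46 ± 0.16, adjusted p = 5.22e-05). Chrnd fell from 144 ± 23.8 to 33.6 ± 3.98 CPM, Chrna1 from 972 ± 54.3 to 425 ± 65.5 CPM, and Lrp4, the receptor of agrin, from 62.3 ± 3.22 to 20.9 ± 4.38 CPM. Chrne, the adult epsilon subunit, was at 0 in all day 3 libraries and at 0.0585 to 0.327 CPM at day 7, too low to test. Ncam1, an adhesion molecule of synapse and satellite cell, rose from 344 ± 45.7 to 644 ± 52.3 CPM. Ache, acetylcholinesterase, and Colq, its collagen tail, rose from 0.332 ± 0.147 to 3.03 ± 0.306 CPM and from 0.695 ± 0.238 to 6.36 ± 3.08 CPM.

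Markers of several other cell types were higher at day 7. Pericyte and smooth muscle markers were higher for 11 of 12 genes and lower for 0 (median log2 3.15), and their sum went from 858 to 1116 CPM to 2790, 4893, 2752 and 2815 CPM. This list shares Des with the list of satellite cell identity and Notch3 with the Notch list, so neither count nor sum is of pericytes alone. Rgs5, a defining pericyte gene, was at 17.6, 14.3, 8.09 and 2.82 CPM at day 3 and 355, 1008, 419 and 201 CPM at day 7, against a mean of 8.65 CPM in day 7 FAPs. Acta2, smooth muscle actin, rose from 236 ± 70.6 to 1228 ± 282 CPM. Schwann and glial markers were higher for 11 of 12 tested and lower for 0 (median log2 1.99; sum 469 to 521 and then 1187 to 2006 CPM), among them Pmp22, a myelin protein gene that other cells also express (55.8 ± 17.7 to 452 ± 95.0 CPM). Ncam1, which satellite cells also express, held most of this sum at day 3 (344 of a mean of 499 CPM) and, with Pmp22, most of it at day 7 (644 of 1607 CPM for Ncam1). Tenocyte markers were higher for 9 of 12 and lower for 1 (median log2 2.65), with Cilp at 23.6, 9, 40.0 and 3.99 CPM and then 201, 374, 40.0 and 254 CPM; day 7 replicate 3 equalled the highest day 3 library to 3 digits (log2 3.51, and 4.58 without both libraries that stood apart). Endothelial markers were low, at 13.3 to 39.3 CPM in sum and then 47.5 to 144 CPM, with 6 of 11 tested higher and 1 lower. Macrophage markers were lower for 12 of 19 tested and higher for 2 (median log2 -3.80), but 7 of 16 lower and 3 higher (median -1.28) without both libraries that stood apart, and their sums in the other day 3 libraries, 37.8 to 123 CPM, lay below the 273 to 361 CPM of day 7. No neutrophil gene and 1 lymphocyte gene could be tested, and Ucp1, the marker of brown fat, was at 0 in all 8 libraries. The part of these cell types in the results above was not tested.

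**Figure D5:**
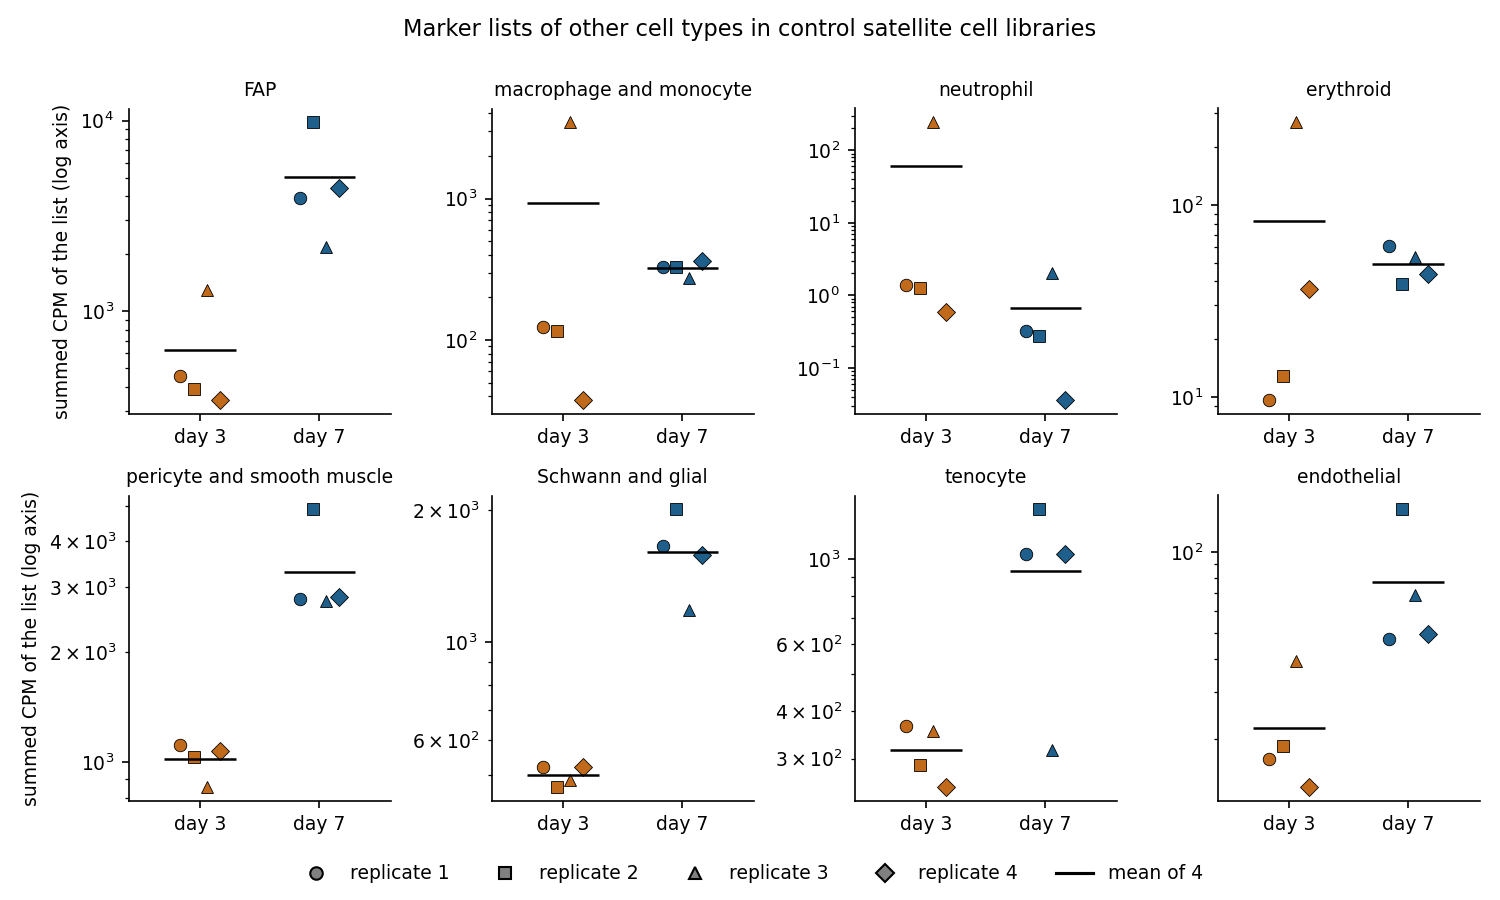
Summed CPM (vertical, log axis) of marker lists of 8 other cell types in each control satellite cell library; a symbol is a replicate and the bar is the mean of 4. Day 3 replicate 3 is the highest of its day for FAP (1292), macrophage (3456), neutrophil (242) and erythroid (269) markers, and all day 7 libraries exceed day 3 for FAP, pericyte and Schwann markers.

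The same day comparison in the other muscle of the same mice, which had received BAT, gave 4649 genes higher (28.5%) and 3981 lower (24.4%) of 16313 tested, 52.9% in all. Of the calls in control cells 7680 were called in the same direction there, 77.9% of the control calls and 89% of those with BAT, and 1 in the opposite direction. The day change differed between control and BAT for 0 of 17774 genes (0%) by edgeR, with 910 at an unadjusted p under 0.05, 0 by limma voom and 7 by DESeq2. Pax7 had a log2 change of 1.49 ± 0.26, Myod1 of -1.33 ± 0.20, Gal of -4.68 ± 0.23 and Igf2 of 4.23 ± 0.19 with BAT. By list, 25 of 28 interferon genes were higher with BAT, 28 of 30 replication genes lower, and 17 of 30 mitosis genes lower. Matrix genes were higher for 23 of 40 with BAT and tenocyte markers for 1 of 12, against 32 of 40 and 9 of 12 in control cells; Col1a1 had a log2 change of 0.82 ± 1.00 (adjusted p = 0.511) and Cilp of 0.74 ± 0.83 (adjusted p = 0.474) with BAT. These differences between the muscles did not pass the test for any of these genes.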

How the data were processed

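The authors deposited 1 table for each day with expected counts per gene; per the submitters' processing notes DRAGEN and mm10 were used. Their roles, the annotation and the strand setting were not given in the sources used here. Libraries were made from 10 ng of RNA with a SMARTer kit, per the labels' protocols. Each table had 55774 entries, of which 287 repeated an identifier with identical values and were dropped, leaving 55487 genes. Of the deposited values above 0, 71.8% were whole, and rounding to whole counts moved no library total by more than 0.00034%. Counts were filtered with filterByExpr (minimum count 10, total 15), scaled by TMM and tested with edgeR 4.0.16 (R 4.3.3), with Benjamini-Hochberg adjustment over all genes tested. Standard errors of the log2 change were taken as its size over the square root of F. Differences between cell types or muscles were interactions in 16 libraries with the mouse as a block; a pair of day 3 libraries without a mouse code were taken as 1 mouse. The fits were also run on simulated counts in which few genes changed and length had no part. That setting differs from these data, so it cannot check the calls made here.

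Alternatives were DESeq2 1.42.0, limma 3.58.1 voom, other scalings and filters, each library left out, and a replicate block over the numbered libraries only. Others were all 32 libraries in 1 fit, the fit without both libraries that stood apart and, chosen after seeing the data, a transcript length offset (lowess, span 0.3). Replicates of a day differed by more than sampling noise (chi-square per degree of freedom 19.1 to 164). Gene positions and lengths are from GENCODE M21 (mm10), which held 55141 of the genes. Named are the sort and satellite cell markers; the 15 largest rises and falls among called genes with a mean of 20 CPM or more in the higher day, no overlap and a call without either library that stood apart; and in 35 lists the key members and, by p or by level, the leading ones; not every gene the rule names is reported here. Members and lists were chosen with earlier results of these data known. Genes with near-identical copies are uncertain.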

Additional observations from a re-analysis of the deposited data

Results flagged for a closer look

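Within the 4 libraries of a day, 11 of 70 list sums and 37 of 312 gene values had a library far from the others by Dixon's criterion, which chance meets in about 1 in 20 groups. Day 3 replicate 3 held 19 of these, day 7 replicate 3 held 12 and day 7 replicate 2 held 9.

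In day 3 replicate 3 the summed levels stood apart for markers of FAPs (1292 CPM), macrophages (3456 CPM), neutrophils (242 CPM), erythroid cells (269 CPM) and adipocytes (39.9 CPM). Single genes did so for Lyz2 (1041 CPM), Laptm5 (90.5 CPM), Il1b (11 CPM), Ccl2 (233 CPM), Cxcl14 (9.18 CPM), Pdgfra (15.2 CPM), Ly6a (35.5 CPM), Col1a1 (424 CPM), Col3a1 (519 CPM), Col15a1 (2.55 CPM), Igfbp4 (16.7 CPM), Hmga2 (30.3 CPM) and Socs3 (63.5 CPM), all high, and for Igf2 (14.4 CPM), which was low.

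Day 7 replicate 3 stood apart with high sums of mitosis (2981 CPM) and neutrophil (2.01 CPM) genes and a low sum of cyclin D and exit genes (2306 CPM). Its Ccnb1 (147 CPM), Ube2c (141 CPM), Top2a (465 CPM), Ncl (843 CPM), Il1b (2.26 CPM) and Lyz2 (39.2 CPM) were high, and its Itga7 (432 CPM), Cdt1 (19.5 CPM) and Fos (854 CPM) low. Day 7 replicate 2 was high in the pericyte sum (4893 CPM), Myc (374 CPM), Stat3 (249 CPM), Cxcl14 (4.94 CPM), Pdgfra (6.66 CPM), Acta2 (1648 CPM), Trarg1 (92.8 CPM) and Trp53i11 (24.5 CPM), and low in Atp5g1 (64 CPM).

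The other day 3 libraries had few such values. Replicate 1 was high in the glycolysis sum (14056 CPM) and Egln3 (40.9 CPM). Replicate 2 was high in the mitosis sum (4442 CPM) and low in Mki67 (88.7 CPM), Myc (136 CPM) and Fosb (134 CPM). Replicate 4 was high in E2f4 (158 CPM) and low in Gpx3 (287 CPM).

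The day change differed between control satellite cells and control FAPs for 4304 genes. On the log2 scale the satellite cell change was higher for Gpc3 (4.51), Hmcn2 (3.31), Gpx3 (3.22), Egr2 (2.92), Tgfbr3 (2.90), Socs3 (2.55), Top2a (1.93), Heyl (1.87), Mef2c (1.85) and Mki67 (1.82). It was lower for Hmga1 (-3.69), Eno3 (-2.96), Cdkn1c (-2.65), H19 (-2.36) and Cdk6 (-1.98).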

How the results depend on the processing

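Over 17 of the 18 alternatives, the count of genes called between the days in control cells lay between 8369 and 10307, against 9865; leaving out each library gave 8951 to 10307. The replicate numbers of the labels were not taken to pair the mice of the days, since the deviations of same-numbered libraries correlated at -0.0103, -0.29 and -0.127. The libraries without a number, called replicate 4 here, correlated at 0.242. With the number as a block 6257 genes were called. That fit held only replicates 1 to 3 of each day, so fewer libraries as well as the block set it apart from the main fit. With BAT each left-out library gave 7302 to 8875 calls, and the replicate block, again of the numbered libraries only, 7298. The difference between control and BAT had 0 calls by edgeR, 7 by DESeq2 and 1 with no filter on low counts. The difference from FAPs had 2988 to 4291 calls with each mouse left out and 3197 with no mouse block.

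Of the 134 genes called among 156 named, 117 kept the call under every alternative and 17 lost it under 1 or more; of 2807 values 29 changed sign, all of genes not called. Leaving out each library gave a log2 change of -0.17 to 0.33 for Myog, with -0.05 and -0.07 without day 3 replicate 1 and day 7 replicate 3; of -0.22 to 0.37 for Tnnt2, with -0.20 without day 7 replicate 3; and of -0.31 to 0.05 for Top2a, with 0.02 and 0.04 without day 7 replicates 1 and 2. It gave -0.34 to 0.15 for Ppargc1a, with 0.01 and 0.06 without day 7 replicates 1 and 4, and -0.18 to 1.88 for Cxcl14, with -0.11, -0.16 and -0.02 without day 3 replicates 1 and 2 and day 7 replicate 2. The ranges were -1.56 to 1.93 for Pdgfra and -1.58 to 0.16 for Ly6a. Without both libraries that stood apart the values were -0.31 for Myog, -0.47 for Tnnt2, 0.05 for Ppargc1a and 2.19 for Pdgfra. The length offset gave -0.07 for Tnnt2 and -0.03 for Cdkn1b, and the fit of all 32 libraries 0.00 for Top2a and 0.04 for Ppargc1a. The replicate block gave 0.01 for Ppargc1a and 0.35 for Pdgfra, the mean count filter of 50 gave 0.01 for Ppargc1a, and voom 0.62 for Pdgfra. The causes were not tested. Depth limits genes near the floor of 3 counts, such as Fgfbp1 at day 7.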
